A study of Sus scrofa with 63 samples.

Results

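The comparison described here is the change in the response of pig skin to sulfur mustard between 24 h and 168 h after exposure. It was calculated as exposed minus control at 168 h, less exposed minus control at 24 h, and rests on 12 of the 63 arrays of the series, 3 in each of 4 groups. The animals were female Yorkshire crossbred pigs, and every site lay on the depilated ventral abdomen. Exposed sites received 400 µL of neat sulfur mustard for 8 min through a template that made lesions of 3 cm, and control sites were the template positions on the same animals that received none. Biopsies of 8 mm were taken from 3 animals at 24 h and from 3 others at 168 h, so the 4 groups are exposed 24 h, control 24 h, exposed 168 h and control 168 h. Each biopsy, made into cRNA from 10 µg of total RNA, was hybridized to 1 Affymetrix Porcine Genome array. No age is given in the labels, and nothing in them states that a replicate number marks an animal.

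Sulfur mustard is an alkylating agent that forms adducts with DNA, RNA and protein, kills basal keratinocytes and separates the epidermis from the dermis. Cells that survive alkylation arrest their cycle and raise genes for repair, protein folding and protein turnover, while neutrophils and then macrophages enter the tissue. Closure of such a wound requires keratinocytes to divide and migrate from the margin and from hair follicles, and fibroblasts, myofibroblasts and new vessels to rebuild the dermis below.

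The scores of histology in the labels place the sampling times within the lesion. All 3 exposed sites at 24 h scored 4 for epidermal necrosis and 4 for dermal necrosis, and the 3 control sites scored 0 on both. The exposed sites were not alike on every score, as pustular epidermitis was 0, 0 and 3 in replicates 1, 2 and 3. Another scale was used at 168 h, on which normal skin totals 13, so the scores of the 2 times cannot be set against each other. Control sites totalled 13 at 168 h, and exposed sites totalled 6, 6 and 9. Complete re-epithelialization scored 0 in the 3 exposed sites and 1 in the 3 control sites.

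The values are log2 signals per probe set, so a difference of 1 is a factor of 2. Array medians ranged from 7.75 to 7.81. When 2 arrays of the same group were subtracted from each other, the differences had an SD of 0.242 to 0.465 (median 0.292 over pairs). Arrays have no read depth, and 3 a group is what sets the precision. Keratinocyte genes marked the tissue as skin, with KRT1 between 14.10 and 14.25 and KRT10 between 14.01 and 14.26 in the 6 control arrays. Content of skeletal muscle was uneven. Its 26 measured genes had a mean of 9.84 to 11.2 in control arrays and 7.24 to 8.60 in exposed arrays at 24 h. At 168 h the mean was 7.33, 7.35 and 13.06 in control arrays, of which replicate 3 is the high one, and 7.22 to 7.25 in exposed arrays. The control 168 h replicate 3 array therefore stands apart from the other control arrays of its time, and counts below are also given without it. Those counts are not free of muscle, since the control arrays at 24 h were muscle-rich as well. The median change of the muscle genes was 0.999 with that array and 3.266 without it. In such biopsies, fewer cells of a type and less RNA per cell cannot be told apart. The RNA of all 12 arrays was transcribed in vitro on 2 days, and each day held arrays of all 4 groups. The exposed 24 h replicate 1 array was scanned on a day of its own, and RNA of the control 24 h replicate 3 site was extracted on a day of its own. At each time replicates 1 and 2 of exposed and control sites shared a day of sacrifice, and replicate 3 of both had another.

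The response changed at 2478 of 23999 probe sets, 10.3% of those tested, at an adjusted p below 0.05 in limma. It was higher at 168 h than at 24 h for 1105 and lower for 1373, and 564 of them changed by at least 1 log2 unit. Among the 6765 genes with a name, each taken from 1 probe set, the response was higher for 310 (4.58%) and lower for 732 (10.8%). The count was 1917 without the control 168 h replicate 3 array. Within single transcription days, which hold 1 or 2 arrays a group, 448 probe sets passed for the earlier day and 365 for the later one. With the single sham array of each time in place of the control arrays, 145 passed. With the day of sacrifice as a block the count was 2802, and with replicates 1 and 2 only, which share that day at each time, it was 866. Both of these alternatives were chosen after seeing the data. Shares of 4.58% higher and 10.8% lower are the background for every list described below. Cytokines and chemokines, complement, immediate early genes, DNA replication, matrix proteins, dermal fibroblasts and the respiratory chain had shares near it. So did p53 targets, DNA repair, NRF2 targets and metallothioneins, endothelium and vessel growth, and collagen processing enzymes. The same holds for differentiated keratinocytes and for steroid, drug and amino acid metabolism. For all of these, the counts of changed members describe single genes and not the list. TGFB1, FOSL1, CD46, KRT8, SPRP, DDB2, PDGFRB, KCNMB1, CA9, DNAJB9, ALDH1A1, PLAGL1 and SAMD4A, all described or named below, passed in some but not all of their probe sets.

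Most of the change lay in the exposed sites. Between 24 h and 168 h, exposed arrays differed at 6311 probe sets (26.3%) and control arrays at 218 (0.908%). The control count was 5 without control 24 h replicate 3, 136 without control 24 h replicate 1, 109 and 82 without control 168 h replicate 1 or 2, and 22 when the 12 arrays were fitted alone. The exposed sites moved further than the control sites for 945 of the 1105 probe sets with a higher response (85.5%) and for 1290 of the 1373 with a lower one (94.0%). Exposed and control arrays of the same number gave 3 differences at each time. Among all genes the 3 differences at 168 h lay wholly above those at 24 h for 14.1% and wholly below them for 23.9%. Among the changed probe sets they did so in the direction of the change for 1056 of 1105 and 1271 of 1373. Those probe sets were picked by their change in the same arrays, so these counts follow from the choice and support nothing. They are also counts of probe sets, whereas the shares before them are of genes.

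A lower response at 168 h was mostly the end of an early rise. Of the 1373 probe sets, 988 were above control at 24 h and not past the threshold at 168 h, and 63 were above control at both times by a smaller margin at 168 h. Another 182 did not pass at 24 h and were below control at 168 h, 54 went from above to below control, 8 were below it at both times, and 78 passed at neither time. A higher response came from a pair of patterns of near size. Of the 1105 probe sets, 500 were below control at 24 h and not past the threshold at 168 h, and 427 were not past it at 24 h and above control at 168 h. A further 53 went from below to above control, 25 were above and 35 below it at both times, and 65 passed at neither time.

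The responses at both times were alike in many genes all the same. Across the 6765 genes their Pearson correlation was 0.673, a description over genes, which are not independent of each other. The 2 responses share no array. Of the 6507 probe sets past the threshold at 24 h, 32.0% were past it in the same direction at 168 h, and these were 48.4% of the 4304 past it at 168 h. In opposite directions 107 passed. Among genes, 24.9% were higher and 11.4% lower than control at 24 h, and 14.5% were higher and 9.46% lower at 168 h.

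**Figure D1:**
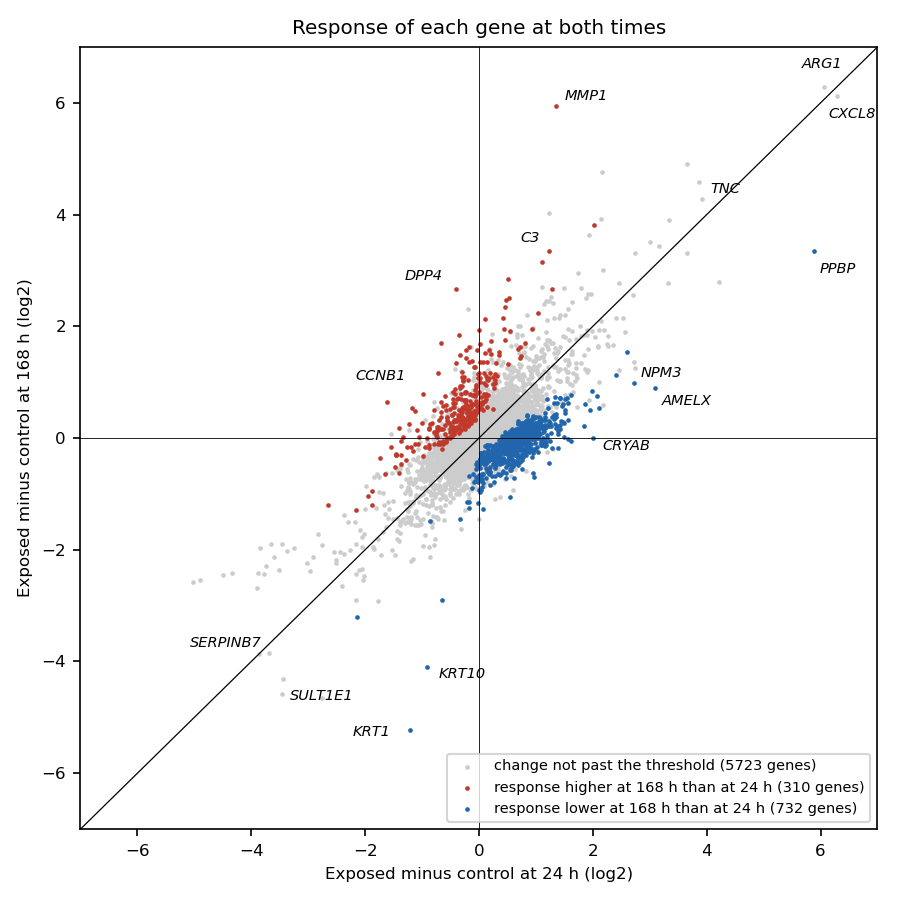
Each point is 1 of the 6765 named genes, with exposed minus control at 24 h (log2) on the x axis and at 168 h on the y axis, each a difference of means of 3 arrays. The diagonal marks equal responses: the 310 genes with a higher response at 168 h (red) lie above it, led by MMP1, the 732 with a lower one (blue) lie below it, with KRT1, KRT10 and PPBP farthest, and 5723 genes (grey) did not pass the threshold.

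Genes for the proteasome, the protease complex that degrades ubiquitin-tagged proteins, changed in 1 direction. The response was lower at 168 h for 26 of 38 measured members and higher for 0, with a median change of -0.589 against -0.060 over all genes. At 24 h 31 members were above control and 0 below it. At 168 h 1 was above control (PSMD10) and 4 were below it, PSMD3, PSMC3, PSMC6 and PSMD11. Without the control 168 h replicate 3 array 25 members changed. Within the transcription days the median was -0.704 on the earlier and -0.587 on the later, with 11 and 4 members past the threshold.

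PSMD3 encodes a subunit of the 19S regulatory cap of the proteasome. Its signals were 10.01, 9.96 and 10.16 in control arrays and 10.84, 10.78 and 10.77 in exposed arrays at 24 h, with no overlap. At 168 h control arrays read 10.00, 10.22 and 10.17 and exposed arrays 9.49, 9.73 and 9.98, so that the exposed group lay below every control array. The response thus went from 0.75 ± 0.13 to -0.39 ± 0.13, a change of -1.14 ± 0.18 (adjusted p = 6.9e-05). PSMD12, another subunit of that cap, read 10.85, 10.54 and 10.74 in exposed arrays at 24 h and 9.65, 9.69 and 9.66 at 168 h, while its control arrays stayed between 9.57 and 9.97. It changed by -1.22 ± 0.25 (adjusted p = 0.00103). PSME3, the nuclear PA28-gamma activator of the proteasome, had a response of 1.49 ± 0.23 at 24 h and 0.27 ± 0.23 at 168 h, and changed by -1.22 ± 0.33 (adjusted p = 0.0132).

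The list for heat shock and the unfolded protein response, which holds chaperones of the cytosol and the endoplasmic reticulum, had a lower response at 168 h for 7 of 29 members and a higher one for 0 (median -0.400). At 24 h 21 members were above control and at 168 h 14 were. CRYAB, a small heat shock protein also abundant in muscle, read 9.35, 9.94 and 9.66 in control and 11.43, 11.70 and 11.86 in exposed arrays at 24 h. The 168 h values overlapped, with 9.43, 10.09 and 11.11 in control and 10.19, 9.90 and 10.52 in exposed arrays. Its change of -2.02 ± 0.61 (adjusted p = 0.0279) was lost in 5 of the 12 fits that left out 1 array, control 168 h replicate 3 among them, with an adjusted p of up to 0.116. The other of its 2 probe sets changed by -0.13 and did not pass.

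DNAJB9, a co-chaperone of the endoplasmic reticulum, had a response of 1.32 ± 0.15 at 24 h, when its exposed arrays of 10.43, 10.24 and 10.13 lay above control arrays of 9.33, 8.89 and 8.63. At 168 h the response was 0.34 ± 0.15, not past the threshold, and the change was -0.98 ± 0.21 (adjusted p = 0.00161). MANF, a secreted protein induced by stress of that compartment, stayed above control at both times. Its response went from 1.54 ± 0.15 to 0.71 ± 0.15, a change of -0.83 ± 0.21 (adjusted p = 0.0087). Without the exposed 24 h replicate 3, the control 24 h replicate 3 or the exposed 168 h replicate 2 array, 4 members of the list changed, and without the control 168 h replicate 3 array 5 did.

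Among the 15 named genes with the largest fall in response were NIP7, NPM3, TIMM8A, EI24, CDC37L1 and LOC102157641, all above control at 24 h. NIP7, an assembly factor of the large ribosomal subunit, read 8.64, 8.94 and 8.07 in control and 10.19, 9.72 and 9.92 in exposed arrays at 24 h. At 168 h control arrays read 8.91, 8.76 and 8.60 and exposed arrays 8.68, 8.38 and 8.66, an overlap that the earlier time did not have. Its change was -1.58 ± 0.21 (adjusted p = 6.86e-06). NPM3, a nucleolar protein of the nucleophosmin family, was above control at both times, by 2.72 ± 0.26 at 24 h and 0.99 ± 0.26 at 168 h. It changed by -1.73 ± 0.37 (adjusted p = 0.002).

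TIMM8A is a chaperone for import into the mitochondrial inner membrane. Its exposed arrays read 10.25, 9.83 and 9.84 at 24 h and 8.43, 8.70 and 8.66 at 168 h, against control arrays between 8.01 and 8.51. The response fell from 1.84 ± 0.15 to 0.22 ± 0.15, a change of -1.62 ± 0.21 (adjusted p = 1.99e-06). EI24, a membrane protein of the endoplasmic reticulum named for its induction by etoposide, went from 1.57 ± 0.17 to -0.01 ± 0.17 and changed by -1.59 ± 0.24 (adjusted p = 3.19e-05). CDC37L1, related to a co-chaperone of HSP90, changed by -1.67 ± 0.31 (adjusted p = 0.000349), from 1.23 ± 0.22 to -0.44 ± 0.22. LOC102157641, which has no assigned role here, went from 1.61 ± 0.19 to -0.05 ± 0.19.

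Ribosomal protein genes had a lower response for 12 of 62 members and a higher one for 0, with a median change of -0.202. The members with the largest change, RPS27L, RPL7L1 and RPL26L1, are paralogs of standard ribosomal proteins. RPS27L, a p53-inducible paralog of RPS27, went from 1.22 ± 0.11 to 0.53 ± 0.11 (change -0.69 ± 0.15, adjusted p = 0.00205). RPL7L1 changed by -0.61 ± 0.12 and RPL26L1 by -0.54 ± 0.14. With the values quantile-normalized again 6 members changed, and 11 without the control 168 h replicate 3 array. Probe sets of such near-identical copies may share signal, so single members are uncertain.

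Genes of the respiratory chain and ATP synthase had a lower response for 8 of 59 members and a higher one for 0 (median -0.487). That share is near the 10.8% of all genes with a lower response. NDUFC1, a subunit of complex I, read 10.59, 10.53 and 10.58 in control and 11.42, 10.93 and 11.23 in exposed arrays at 24 h. At 168 h exposed arrays read 10.38, 10.24 and 10.45, below control arrays of 10.58, 10.68 and 11.15, the highest of which is the muscle-rich one. Its change was -1.07 ± 0.28 (adjusted p = 0.00936). Muscle is rich in these transcripts. The count was 4 without the control 168 h replicate 3 or the exposed 168 h replicate 2 array, 5 without the exposed 24 h replicate 2 or replicate 3 array, and 27 with the muscle score of each array as a covariate.

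**Figure D2:**
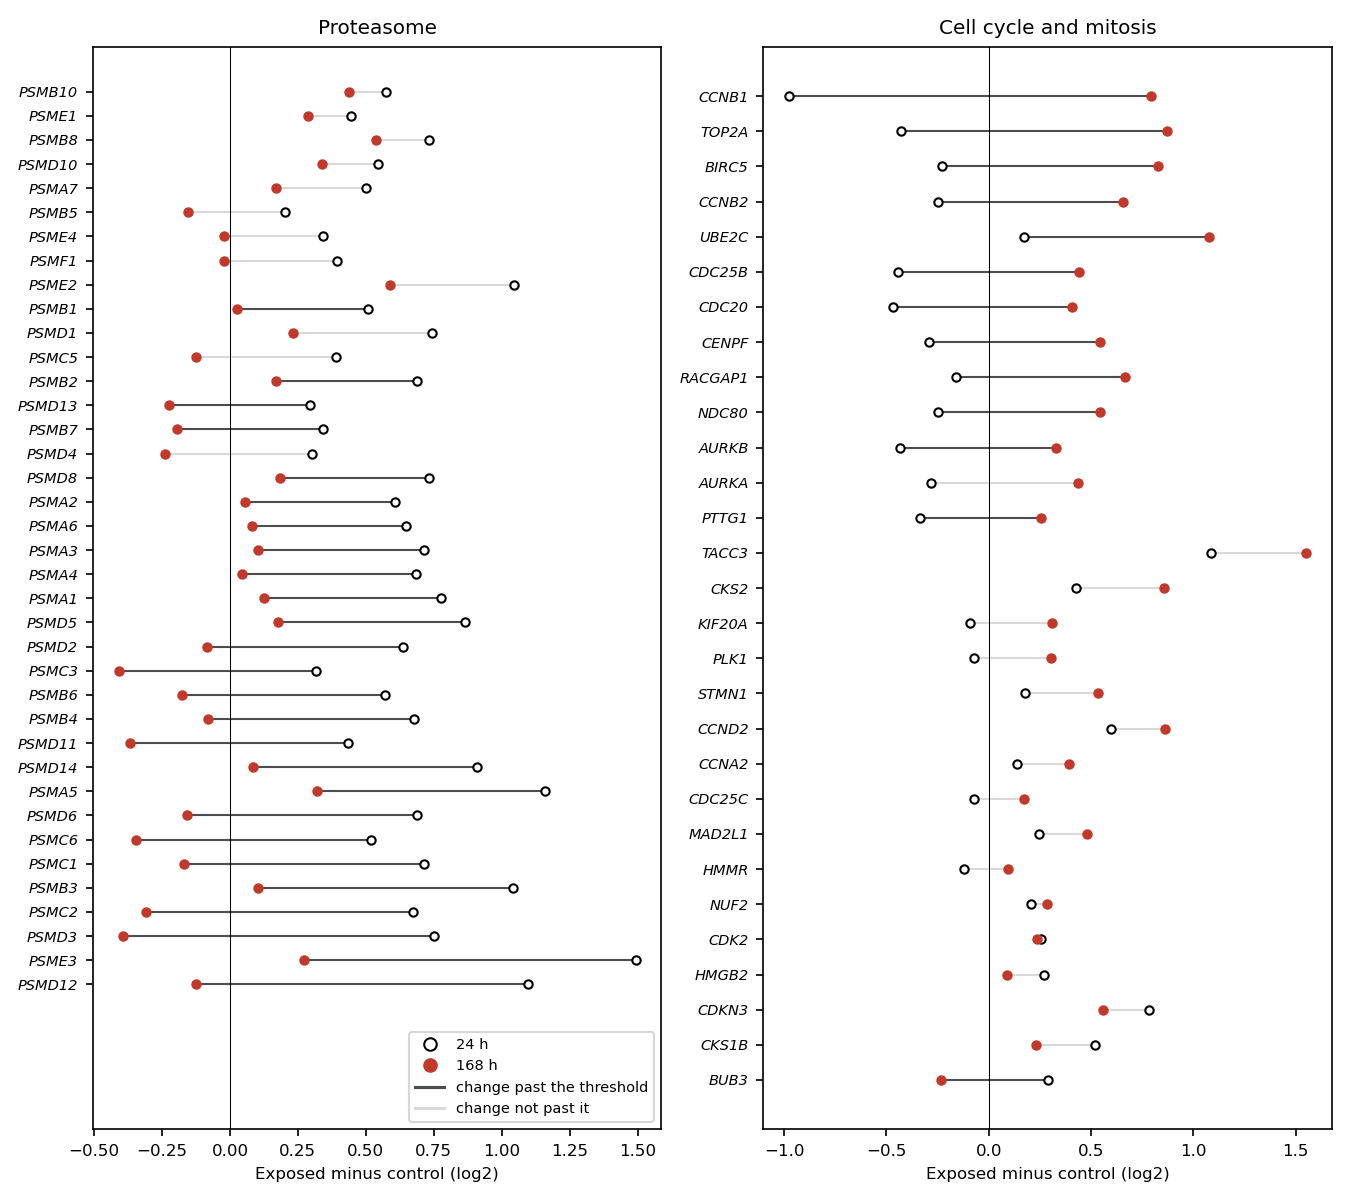
Exposed minus control (log2, x axis) at 24 h (open circles) and 168 h (filled circles) for the 38 measured proteasome genes and the 29 measured genes of cell cycle and mitosis, ordered by change. Dark lines mark changes past the threshold, 26 of which are falls in the proteasome panel, and 12 of which are rises and 1 a fall in the cell cycle panel.

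Genes of the cell cycle and mitosis changed the other way. The response was higher at 168 h for 12 of 29 measured members and lower for 1, BUB3, with a median change of 0.431. At 24 h 6 members were above and 4 below control, and at 168 h 18 were above and 1 below it. Control sites moved as well: the median of these genes was 0.364 higher in control arrays at 168 h than at 24 h, and 0.828 higher in exposed arrays. The count of rises was 11 without the control 168 h replicate 3 array, 8 to 14 over all fits that left out 1 array, and 6 when the 12 arrays were fitted alone.

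CCNB1 encodes cyclin B1, which drives entry into mitosis. Its control arrays read 7.90, 7.93 and 7.10 and its exposed arrays 6.92, 6.94 and 6.14 at 24 h, every exposed value lying below every control value. At 168 h control arrays read 8.22, 8.97 and 8.45 and exposed arrays 9.07, 9.35 and 9.59, every exposed value now lying above every control value. The response turned from -0.97 ± 0.22 to 0.79 ± 0.22, a change of 1.77 ± 0.31 (adjusted p = 0.00019). Control arrays rose by 0.90 ± 0.22 between the times (adjusted p = 0.0368) and exposed arrays by 2.67 ± 0.22, so the control rise offset part of the exposed one.

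TOP2A, the topoisomerase that untangles DNA before division, read 7.94, 8.12 and 7.37 in exposed and 8.38, 8.37 and 7.96 in control arrays at 24 h. At 168 h exposed arrays read 9.79, 9.60 and 9.81, all above control arrays of 8.82, 9.21 and 8.57. The change was 1.30 ± 0.29 (adjusted p = 0.003). BIRC5, the chromosomal passenger protein survivin, changed by 1.06 ± 0.28 (adjusted p = 0.0105), a call lost without the exposed 24 h replicate 3 array (adjusted p = 0.0654).

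DNA replication and nucleotide supply had no common direction, with 1 of 16 members higher and 2 lower (median 0.062). RRM2, the small subunit of ribonucleotide reductase made in S phase, went from -0.08 ± 0.24 to 1.28 ± 0.24, a change of 1.36 ± 0.34 (adjusted p = 0.00668). PCNA, the sliding clamp of DNA polymerases that also acts in repair, was among the genes with the clearest early rise. Its exposed arrays read 11.08, 11.01 and 11.05 at 24 h against 9.16, 9.43 and 8.96 in control arrays. At 168 h they read 10.01, 9.98 and 10.11 against 9.04, 9.67 and 9.53, still without overlap. The response went from 1.86 ± 0.14 to 0.61 ± 0.14 and changed by -1.25 ± 0.20 (adjusted p = 5.45e-05). CTPS1, which makes CTP, changed by -0.86 ± 0.24 (adjusted p = 0.0144, or 0.0749 without the exposed 24 h replicate 1 array).

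Targets of p53, the transcription factor activated by DNA damage, were above control for 12 of 18 members at 24 h and 8 at 168 h. Their response was lower at 168 h for 3 members and higher for 1 (median -0.334). GADD45A, a growth arrest protein, remained above control, with exposed arrays of 11.67, 11.70 and 11.83 at 24 h and 11.14, 11.25 and 10.63 at 168 h. Its response of 2.61 ± 0.22 became 1.54 ± 0.22, a change of -1.07 ± 0.32 (adjusted p = 0.0232) that was lost in 4 of the 12 fits that left out 1 array. PPM1D, a phosphatase that restrains the p53 pathway, was near control at 24 h and read 7.87, 8.08 and 7.80 in exposed against 9.21, 9.33 and 8.96 in control arrays at 168 h. It changed by -1.07 ± 0.25 (adjusted p = 0.00402). TP53I3, an oxidoreductase induced by p53, was the other lower member, at -0.62 ± 0.16 (adjusted p = 0.0109). The list had 5 lower members without control 24 h replicate 2 and 1 without control 168 h replicate 2. DDB2, a damage recognition factor of nucleotide excision repair, was below control at both times, by -1.66 ± 0.17 and then -0.64 ± 0.17, so its response rose by 1.01 ± 0.24 (adjusted p = 0.00515).

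Of 21 DNA repair genes 2 had a higher and 2 a lower response. CHEK2, a checkpoint kinase, read 8.00, 7.97 and 8.14 in exposed and 7.21, 7.43 and 7.10 in control arrays at 168 h, and changed by 0.70 ± 0.15 (adjusted p = 0.00235). BRCA1, of homologous recombination, was the other higher member, at 0.56 ± 0.17 (adjusted p = 0.0253). POLB, the polymerase of base excision repair, changed by -0.82 ± 0.23, and APEX1, the endonuclease that acts before it, by -0.71 ± 0.22. Their adjusted p values of 0.0142 and 0.0305 rose to as much as 0.057 and 0.0926 when 1 array was left out. Over the 12 fits of that kind the list had 1 or 2 higher members and 0 to 2 lower ones.

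Among immediate early genes, 2 of 14 had a lower response, MYC by -0.84 ± 0.24 (adjusted p = 0.0202, at most 0.0669 without 1 array) and FOSL1 by -0.72 ± 0.16 (adjusted p = 0.00294), a subunit of AP-1.

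The largest falls among the named genes, each taken from 1 probe set, belonged to KRT1 and KRT10, the keratin pair of differentiating keratinocytes. KRT1 read 14.11, 14.11 and 14.25 in control and 13.21, 12.76 and 12.84 in exposed arrays at 24 h. At 168 h control arrays read 14.24, 14.22 and 14.10, while exposed arrays read 7.97, 8.67 and 10.22, with replicate 3 the highest. The response went from -1.22 ± 0.27 to -5.23 ± 0.27, a change of -4.01 ± 0.38 (adjusted p = 6.01e-09). KRT10 followed the same course. Its exposed arrays read 13.44, 13.13 and 13.09 at 24 h and 9.21, 9.87 and 11.04 at 168 h, its control arrays never fell below 14.01, and its response changed by -3.19 ± 0.35 (adjusted p = 1.73e-07).

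Other markers of differentiated keratinocytes were already low at 24 h. Of 13 measured members 11 were below control at 24 h and 11 at 168 h, with medians of -1.787 and -2.186. Only KRT1 and KRT10 had a lower response at 168 h among these 13, and SPINK5 had a higher one. KRT2, a keratin of the upper epidermis, read 9.81, 9.75 and 8.43 in exposed arrays at 24 h and 7.16, 7.73 and 7.16 at 168 h, against control arrays between 11.83 and 12.32. Its change of -1.90 ± 0.86 did not pass the threshold (adjusted p = 0.163, 95% interval -3.64 to -0.16). SPINK5, an inhibitor of epidermal proteases, read 9.31, 9.16 and 8.09 in exposed arrays at 24 h and 10.62, 10.67 and 10.40 at 168 h, and was below control at both times. Its change of 1.44 ± 0.46 (adjusted p = 0.0382) was lost in 8 of the 12 fits that left out 1 array, control 168 h replicate 3 among the arrays left out.

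Wound keratinocyte genes, raised in migrating epidermis, had a higher response for 3 of 13 members. AREG, a ligand of the epidermal growth factor receptor, read 5.72, 6.02 and 5.70 in control and 7.29, 7.45 and 6.56 in exposed arrays at 24 h. By 168 h it read 5.94, 5.95 and 5.65 in control and 8.32, 8.48 and 8.72 in exposed arrays, its exposed values above all those of 24 h. It changed by 1.37 ± 0.34 (adjusted p = 0.00633). KRT8, a keratin of simple and glandular epithelium, read 10.72, 10.13 and 10.45 in exposed and 9.15, 8.49 and 8.75 in control arrays at 168 h, and changed by 1.81 ± 0.33 (adjusted p = 0.000368). Its control arrays were lower at 168 h than at 24 h by 0.88, not past the threshold (adjusted p = 0.0544). KRT19, a keratin of follicles and glands and the 1 of 8 members of that list with a higher response, changed by 1.76 ± 0.47 (adjusted p = 0.0124, or 0.0555 without the control 24 h replicate 1 array). SPRP, listed by RefSeq also as SPRR1B and encoding a cornified envelope precursor, changed by 0.92 ± 0.29 (adjusted p = 0.0322), a call lost in 6 of the 12 fits that left out 1 array. It was below control at 24 h, by -0.91 ± 0.20, and level with control at 168 h (0.01 ± 0.20), so it was above control at neither time.

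Basal keratinocyte markers had 0 of 6 members past the threshold in the change. Of these, 4 were below control at 24 h and 2 at 168 h. The largest change was that of COL7A1, the anchoring fibril collagen, at 0.99 ± 0.36 (adjusted p = 0.073, 95% interval 0.26 to 1.72).

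**Figure D3:**
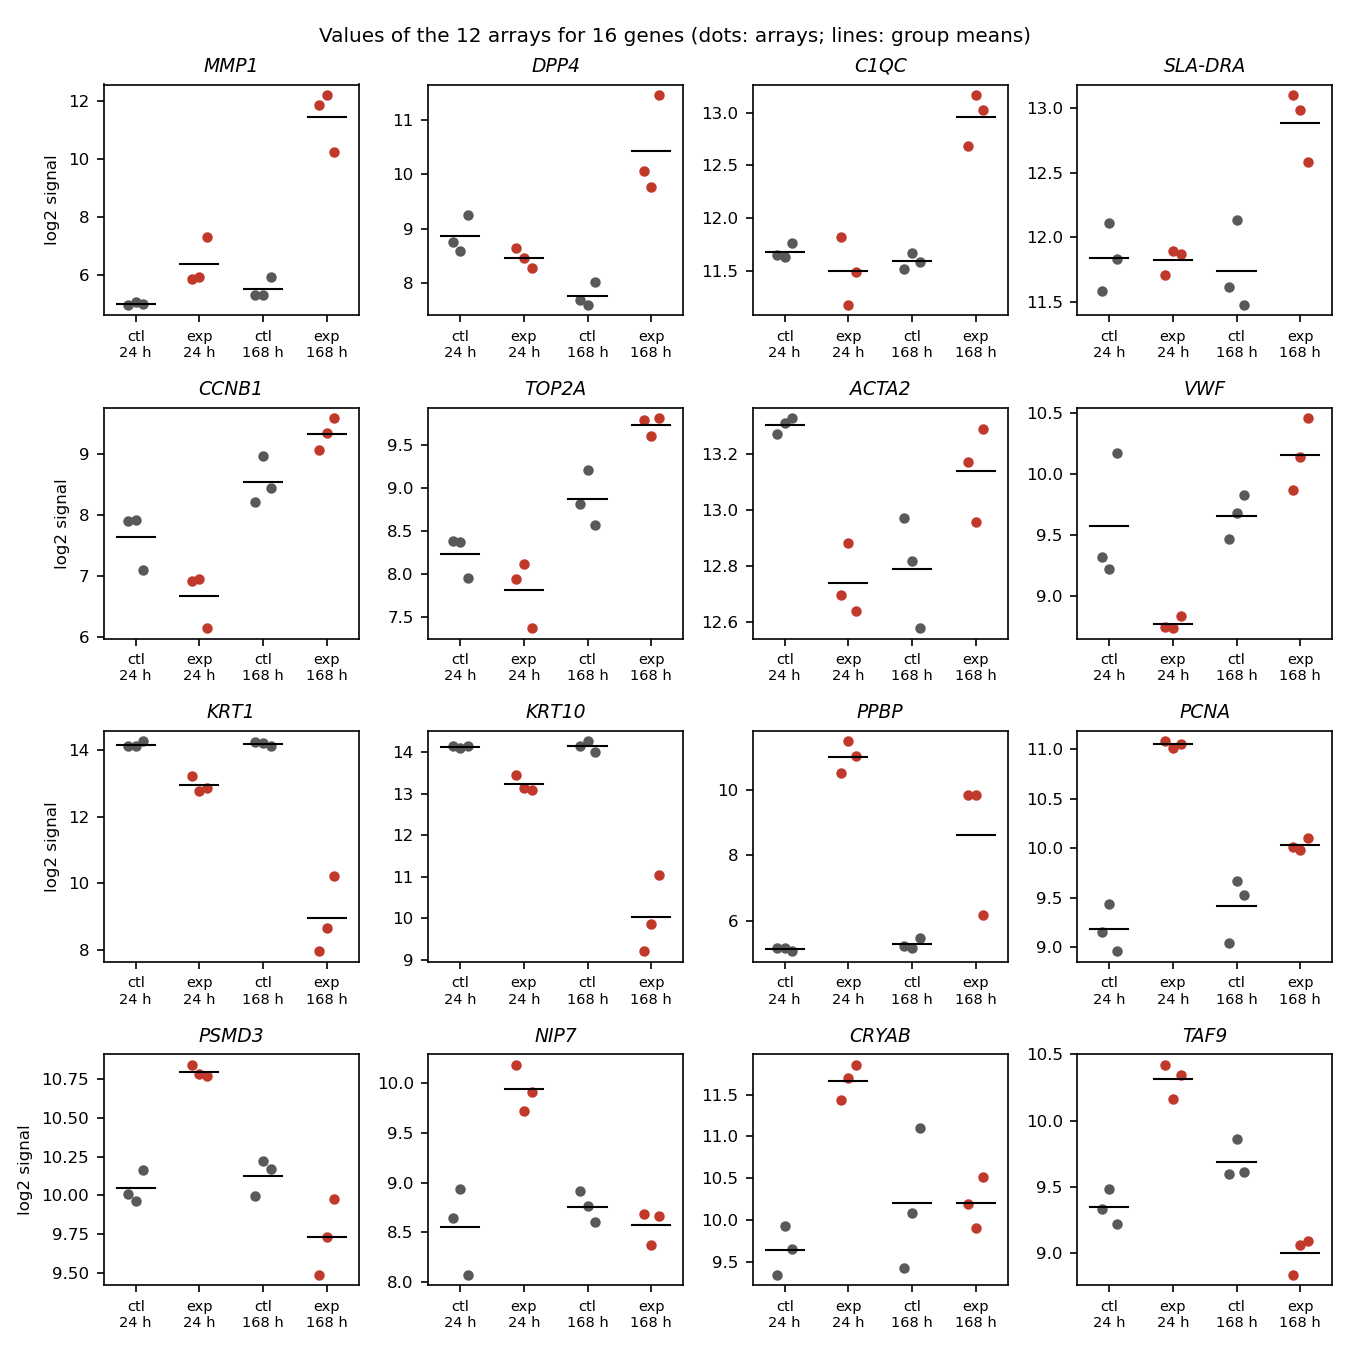
Log2 signal (y axis) of 16 genes in the 12 arrays, with control (ctl) and exposed (exp) arrays at 24 h and 168 h on the x axis, dots for arrays in order of replicate number and lines for the mean of 3. The upper 8 panels show responses that were higher at 168 h and the lower 8 responses that were lower, with KRT1 and KRT10 near 13 in exposed arrays at 24 h and from 7.97 to 11.04 at 168 h.

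Macrophage genes were above control for 10 of 19 members at 24 h and 15 at 168 h, and 4 had a higher response at 168 h (median 0.259). C1QC, a chain of complement C1q made by tissue macrophages, did not differ by more than the threshold at 24 h, with 11.64, 11.63 and 11.76 in control and 11.82, 11.18 and 11.49 in exposed arrays. At 168 h it read 11.51, 11.67 and 11.58 in control and 12.68, 13.17 and 13.02 in exposed arrays, which do not overlap. The change was 1.55 ± 0.46 (adjusted p = 0.0225), with an adjusted p of up to 0.0586 in 3 fits without 1 array. GPNMB, a glycoprotein of phagocytic macrophages, turned from -0.42 ± 0.20, not past the threshold, to 0.78 ± 0.20 (change 1.21 ± 0.29, adjusted p = 0.00463, passed by 1 of its 5 probe sets). Its exposed arrays rose by 0.60 ± 0.20 between the times and its control arrays moved by -0.61 ± 0.20, the latter not past the threshold. CTSD, the lysosomal protease cathepsin D, went from 0.09 ± 0.16 to 0.98 ± 0.16 (change 0.89 ± 0.22, adjusted p = 0.0064). CD83, a surface protein of mature antigen-presenting cells, was the fourth, at 0.80 ± 0.24 (adjusted p = 0.0231). CD163 and CD14, receptors of monocytes and macrophages, were above control by 1.80 and 1.62 at 24 h and by 1.83 and 1.50 at 168 h. Without the control 24 h replicate 3 array 2 of the 19 passed, and 3 without the control 168 h replicate 3 array.

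ACP5, CLEC5A and CHI3L1 were among the 15 named genes with the largest rise. ACP5, the tartrate-resistant acid phosphatase of lysosomes in macrophages and osteoclasts, read 9.57, 9.61 and 9.63 in control and 8.59, 8.79 and 9.43 in exposed arrays at 24 h, all exposed values lying lower. At 168 h it read 9.61, 9.74 and 9.49 in control and 11.74, 11.72 and 10.49 in exposed arrays, all higher. Its change was 2.37 ± 0.39 (adjusted p = 9.69e-05). CLEC5A, a lectin receptor of myeloid cells, read 6.12, 6.01 and 6.25 in exposed arrays at 24 h and 8.54, 8.87 and 6.98 at 168 h, against control values of at most 5.76. It changed by 1.99 ± 0.38 (adjusted p = 0.000608). CHI3L1, a secreted chitinase-like protein, changed by 1.89 ± 0.34 (adjusted p = 0.000334), from 0.45 ± 0.24 to 2.34 ± 0.24.

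Neutrophil genes were above control for 8 of 15 members at 24 h and 11 at 168 h. The response was higher for 3 of them, S100A8, CYBA and MMP9. S100A8, a calcium-binding protein of neutrophils and stressed epidermis, read 8.31, 8.57 and 8.10 in exposed and 6.54, 6.60 and 6.57 in control arrays at 168 h, after 7.08, 7.37 and 7.35 in exposed and 7.05, 6.68 and 6.71 in control arrays at 24 h. Its change was 1.30 ± 0.42 (adjusted p = 0.0369). That of CYBA, a subunit of the NADPH oxidase, was 0.81 ± 0.25 and that of MMP9, gelatinase B, 0.60 ± 0.20, with adjusted p values of 0.0305 and 0.0407. These 3 calls were fragile. The count for the list was 0 without control 24 h replicate 1, control 168 h replicate 2, control 168 h replicate 3 or exposed 168 h replicate 1, and 1 without exposed 24 h replicate 1, exposed 24 h replicate 3 or exposed 168 h replicate 2.

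Antigen presentation genes had a higher response for 4 of 20 members, all of MHC class II: SLA-DQB1, SLA-DRA, SLA-DQA1 and SLA-DMB. SLA-DRA, the alpha chain of the DR molecule, read 11.59, 12.11 and 11.83 in control and 11.71, 11.89 and 11.87 in exposed arrays at 24 h, which overlap. At 168 h exposed arrays of 13.10, 12.98 and 12.58 lay above control arrays of 11.61, 12.13 and 11.48. The change was 1.17 ± 0.33 (adjusted p = 0.0169), and 0.0565 without the control 168 h replicate 3 array. SLA-DQB1 went from -0.19 ± 0.23 to 1.05 ± 0.23 (change 1.24 ± 0.33, adjusted p = 0.0121). The 6 measured class I genes of the list, SLA-2, SLA-3, SLA-6, SLA-7, SLA-8 and B2M, had changes from -0.23 to 0.28, none past the threshold. Members of the list passing numbered 1 without the control 168 h replicate 3 array, and 2 without control 24 h replicate 3, exposed 24 h replicate 1 or exposed 168 h replicate 1. Probe sets of related class II genes may share signal.

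Lymphocyte markers passed in 0 of 14 cases in the change and in 1 at 168 h (IL7R), and their median response was 0.159 at 24 h and 0.352 at 168 h. JCHAIN, the joining chain of secreted antibodies, had the largest change of the list, 0.83 ± 1.14 (adjusted p = 0.714, 95% interval -1.47 to 3.14). Its exposed arrays ranged from 7.97 to 11.00 at 24 h and from 8.16 to 10.52 at 168 h.

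Of 32 cytokines and chemokines, 13 were above and 3 below control at 24 h, and 19 were above and 1 below at 168 h. The response changed for 3. CCL3L1, a chemokine of the CCL3 kind that attracts monocytes, read 7.84, 7.89 and 8.48 in control and 8.12, 8.97 and 8.66 in exposed arrays at 24 h. At 168 h exposed arrays read 10.52, 11.28 and 10.56 against 7.98, 7.87 and 7.97. It changed by 2.33 ± 0.52 (adjusted p = 0.00243). TGFB1, transforming growth factor beta 1, went from 0.36 ± 0.17 to 1.49 ± 0.17, a change of 1.14 ± 0.24 (adjusted p = 0.00139). PPBP, a chemokine stored in platelets, was the lower member. Its control arrays stayed between 5.06 and 5.47. Exposed arrays read 10.53, 11.48 and 11.03 at 24 h and 9.86, 9.86 and 6.18 at 168 h, the last of these close to control. The change was -2.53 ± 0.70 (adjusted p = 0.0153) and without that exposed 168 h replicate 3 array it was -1.31 (adjusted p = 0.0685). Without that array 4 members of the list had a higher response and 0 a lower one.

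Complement and acute phase genes had 1 of 21 members higher, C3, and 1 lower, the membrane inhibitor CD46. C3, the central protein of complement, was above control by 1.22 ± 0.48 at 24 h (adjusted p = 0.053) and by 3.35 ± 0.48 at 168 h. Its exposed arrays read 11.27, 11.06 and 10.47 and then 11.79, 12.19 and 12.27, and its control arrays 10.06, 9.50 and 9.57 and then 8.22, 8.61 and 9.37, which were lower at 168 h by 0.98 (adjusted p = 0.344). The change was 2.13 ± 0.68 (adjusted p = 0.0357), lost in 7 of the 12 fits without 1 array. CD46 changed by -0.56 ± 0.17 (adjusted p = 0.0338), lost in 8 of them. Over the same fits 0 to 3 members of the list were higher and 0 or 1 lower.

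The 19 interferon-stimulated genes had 0 members past the threshold in the change, with 7 above control at 24 h and 5 at 168 h. ISG15, a ubiquitin-like modifier with the largest change of the list, changed by -1.24 ± 1.04 (95% interval -3.34 to 0.87).

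MMP1 had the largest rise of all named genes. It encodes interstitial collagenase, which cuts fibrillar collagen. Control arrays read 4.96, 5.06 and 4.99 at 24 h and 5.31, 5.29 and 5.91 at 168 h. Exposed arrays read 5.85, 5.92 and 7.32 at 24 h and 11.89, 12.22 and 10.25 at 168 h. The groups do not overlap at 168 h, and replicate 3 is the highest exposed array at 24 h and the lowest at 168 h. The response was 1.36 ± 0.58 at 24 h, not past the threshold, and 5.95 ± 0.58 at 168 h, a change of 4.59 ± 0.81 (adjusted p = 0.00024).

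Of the 21 matrix proteases and inhibitors 5 had a higher response and 0 a lower one. Besides MMP1 and MMP9 these were MMP7, MMP14 and MMP2. MMP7, matrilysin of glandular epithelium, read 8.33, 7.37 and 6.96 in control and 9.87, 7.85 and 8.42 in exposed arrays at 168 h, which overlap. It changed by 1.88 ± 0.51 (adjusted p = 0.0126), with an adjusted p of up to 0.073 without control 168 h replicate 3 or exposed 168 h replicate 1. Control sites had the larger part in that change. Between the times they moved by -1.09 ± 0.36 and exposed sites by 0.79 ± 0.36, neither past the threshold (adjusted p = 0.133 and 0.0978). MMP14, the membrane protease that activates MMP2, went from -0.23 ± 0.19 to 0.68 ± 0.19 and changed by 0.91 ± 0.26 (adjusted p = 0.0191, up to 0.0718 without control 24 h replicate 3 or exposed 168 h replicate 3). TIMP1, the inhibitor of these enzymes, had responses of 2.14 at 24 h and 2.10 at 168 h. Counts for the list were 2 without control 24 h replicate 3, and 3 without control 168 h replicate 2, control 168 h replicate 3 or exposed 168 h replicate 3.

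Matrix proteins had 2 of 30 members higher and 0 lower. PRELP, a leucine-rich proteoglycan of the basement membrane zone, read 10.08, 10.18 and 10.78 in control and 9.12, 9.36 and 9.20 in exposed arrays at 24 h. At 168 h the order was the reverse, with 10.00, 9.85 and 9.84 in control and 10.67, 10.13 and 10.35 in exposed arrays. Its response went from -1.12 ± 0.23 to 0.48 ± 0.23, the second not past the threshold (adjusted p = 0.143), and changed by 1.60 ± 0.32 (adjusted p = 0.00101). COL4A2, a chain of basement membrane collagen, changed by 0.84 ± 0.21 (adjusted p = 0.0066), from -0.23 ± 0.15 to 0.61 ± 0.15. Fibrillar COL1A2 and COL3A1 changed by -0.58 and -0.04, not past the threshold. Among 10 collagen processing enzymes PCOLCE2, an enhancer of procollagen cleavage, had a lower response, -1.15 ± 0.23 (adjusted p = 0.000978), and 0 had a higher one.

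Growth factors and their receptors had a higher response for 8 of 30 members and a lower one for 0, and the count was 7 or 8 whichever array was left out. Besides AREG and TGFB1 these were IGFBP5, SFRP1, TGFB3, IGF1R, DKK2 and PDGFRB. IGFBP5, a binding protein of insulin-like growth factors, read 9.69, 9.18 and 10.03 in control and 8.26, 8.00 and 8.02 in exposed arrays at 24 h. The groups overlapped at 168 h, with 9.88, 9.22 and 9.56 in control and 9.32, 9.25 and 9.59 in exposed arrays. It changed by 1.38 ± 0.32 (adjusted p = 0.00399). SFRP1, a secreted antagonist of Wnt, was unlike it in that 168 h was the time that differed. Its exposed arrays read 10.09, 10.38 and 10.25 at 24 h and 11.33, 10.95 and 11.45 at 168 h, against 9.93, 9.83 and 9.90 in control arrays at 168 h, and it changed by 1.21 ± 0.22 (adjusted p = 0.00039).

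Smooth muscle and myofibroblast genes had a higher response for 4 of 12 members, RGS5, KCNMB1, ACTA2 and TPM1, and a lower one for 0 (median 0.547). RGS5, a marker of pericytes around small vessels, read 10.58, 10.57 and 10.17 in control and 9.24, 9.10 and 9.27 in exposed arrays at 24 h. Control arrays at 168 h read 10.18, 10.38 and 10.37 and exposed arrays 10.70, 10.46 and 10.54, with exposed arrays above control. Its change was 1.49 ± 0.37 (adjusted p = 0.00655), from -1.24 ± 0.26 to 0.25 ± 0.26. ACTA2, the actin of smooth muscle and myofibroblasts, went from -0.57 ± 0.12 to 0.35 ± 0.12 and changed by 0.92 ± 0.17 (adjusted p = 0.000435). In that change the control sites had the larger part: they were lower at 168 h by 0.52 (adjusted p = 0.0307), and exposed sites were higher by 0.40 ± 0.12. KCNMB1 changed by 1.14 ± 0.35 (adjusted p = 0.0316, up to 0.123 without 1 array). Here too control sites had the larger part, at -0.70 ± 0.25 against 0.43 ± 0.25 in exposed sites, neither past the threshold.

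Endothelial and vessel genes had 2 of 20 members higher, VWF and DLL4, and 1 lower, NOS3. VWF, the von Willebrand factor made by endothelium, read 9.32, 9.22 and 10.17 in control and 8.74, 8.74 and 8.84 in exposed arrays at 24 h, all exposed values lying lower. At 168 h exposed arrays of 9.87, 10.14 and 10.46 lay above control arrays of 9.46, 9.68 and 9.83. The change was 1.29 ± 0.26 (adjusted p = 0.000828), and 1 of its 3 probe sets passed, with changes of 0.07 to 1.29. DLL4, a Notch ligand of vessel sprouts, changed by 0.58 ± 0.17 and NOS3, the nitric oxide synthase of endothelium, by -0.69 ± 0.22. Their adjusted p values of 0.0241 and 0.041 exceeded the threshold in 5 and 7 of the 12 fits without 1 array. For DLL4 control sites had the larger part of the change. They moved by -0.45 ± 0.12 between the times and exposed sites by 0.13 ± 0.12, neither past the threshold. The median change of the list was 0.306.

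Hypoxia and glycolysis genes had 4 of 20 members higher and 0 lower. They were SLC2A3, SLC2A1, CA9 and ANKRD37. The glucose transporter SLC2A1 read 9.76, 10.13 and 9.67 in control and 9.25, 9.50 and 9.03 in exposed arrays at 24 h, all lower. By 168 h the control values were 9.75, 9.90 and 9.48 and the exposed values 10.31, 10.59 and 10.47, all higher. Its response turned from -0.59 ± 0.20 to 0.74 ± 0.20, a change of 1.34 ± 0.28 (adjusted p = 0.00145). CA9, a carbonic anhydrase induced by low oxygen, turned likewise from -0.58 ± 0.11 to 0.51 ± 0.11 (change 1.09 ± 0.16, adjusted p = 1.66e-05). SLC2A3, the transporter of neurons and leukocytes, was above control at both times, by 2.03 ± 0.36 and 3.81 ± 0.36. It changed by 1.78 ± 0.51 (adjusted p = 0.0189, up to 0.0837 without 1 array). The glycolytic enzymes LDHA and PGK1 and the vessel growth factor VEGFA changed by less, with LDHA at 0.10, PGK1 at -0.32 and VEGFA at -0.46, none past the threshold. The list count was 2 without exposed 24 h replicate 1, control 168 h replicate 1 or exposed 168 h replicate 2.

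NRF2 targets and metallothioneins had 2 of 24 members higher and 1 lower. MT1A, a metallothionein that binds zinc, was below control at 24 h by -1.38 ± 0.26 and not at 168 h (-0.05 ± 0.26), and changed by 1.33 ± 0.36 (adjusted p = 0.0132, up to 0.0671 without control 168 h replicate 3 or exposed 168 h replicate 2). PRDX1, a peroxide-reducing enzyme, changed by -0.60 ± 0.16 (adjusted p = 0.00893). FTH1, the ferritin heavy chain, changed by 0.27 ± 0.09 (adjusted p = 0.0479, lost in 9 of the 12 fits without 1 array). Without control 168 h replicate 3 the list had 0 higher members, and 1 or 2 without any other array. HMOX1, the heme oxygenase that NRF2 induces, had responses of 2.54 and 2.15, a change not past the threshold.

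Other genes with large rises had a part of the change in the control sites. DPP4, a membrane peptidase of epithelium, fibroblasts and T cells, read 8.76, 8.58 and 9.25 in control and 8.64, 8.46 and 8.27 in exposed arrays at 24 h. Control arrays read 7.67, 7.59 and 8.01 at 168 h, and exposed arrays read 10.06, 9.76 and 11.47, all above them. Exposed arrays rose by 1.97 ± 0.29 between the times and control arrays were lower by 1.11 (adjusted p = 0.0486), so the change of 3.08 ± 0.41 (adjusted p = 4.03e-06) drew on both. RNF128, a ubiquitin ligase, changed by 2.19 ± 0.52 (adjusted p = 0.00449), of which control arrays contributed a fall of 1.41 (adjusted p = 0.0487). That was the larger part, and its exposed arrays moved by 0.78 ± 0.37, not past the threshold (adjusted p = 0.109).

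KMO and KIAA1324 were further cases in which control sites had the larger part. KMO, which hydroxylates kynurenine in tryptophan breakdown, read 10.98, 10.21 and 9.62 in control arrays at 24 h and 9.23, 8.74 and 9.15 at 168 h. Its exposed arrays ranged from 9.85 to 11.63 at 24 h and from 11.17 to 11.89 at 168 h, and the change was 2.00 ± 0.52 (adjusted p = 0.00986, or 0.0591 without exposed 24 h replicate 3). Between the times its control sites moved by -1.23 ± 0.37 and its exposed sites by 0.76 ± 0.37, neither past the threshold. KIAA1324, an endosomal membrane protein, changed by 2.03 ± 0.52 (adjusted p = 0.00852). Its control arrays moved by -1.15 ± 0.37 between the times and its exposed arrays by 0.88 ± 0.37, neither past the threshold. ADAM28, a membrane metalloprotease, read 8.26, 8.59 and 8.28 in exposed and 6.47, 6.30 and 6.55 in control arrays at 168 h, after 7.28, 7.16 and 6.62 in exposed and 7.23, 6.98 and 6.83 in control arrays at 24 h. It changed by 1.93 ± 0.26 (adjusted p = 6.86e-06). SLCO2B1, a transporter of organic anions, changed by 1.82 ± 0.26 (adjusted p = 9.59e-06) and PKIB, an inhibitor of protein kinase A, by 2.26 ± 0.42 (adjusted p = 0.000465). PKIB was below control at 24 h, by -1.61 ± 0.30, and not past the threshold at 168 h (0.65 ± 0.30). TCN1, a binder of vitamin B12, changed by 2.04 ± 0.68 (adjusted p = 0.0463), lost in 7 of the 12 fits without 1 array and past the threshold in 1 of its 2 probe sets.

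Genes of steroid, drug and amino acid metabolism had 2 of 21 members higher and 0 lower, and 1 to 4 higher over the fits without 1 array. TAT, which starts the breakdown of tyrosine, was near control at 24 h, with 6.64, 6.28 and 6.39 in exposed and 6.18, 6.11 and 5.76 in control arrays. At 168 h exposed arrays read 8.57, 8.51 and 7.98, above control arrays of 6.19, 6.20 and 6.24. It changed by 1.73 ± 0.39 (adjusted p = 0.0028). ALDH1A1, an enzyme of retinoic acid synthesis, changed by 1.52 ± 0.49 (adjusted p = 0.0387, up to 0.197 without 1 array). RORA, a nuclear receptor of the clock and the 1 of 7 clock genes past the threshold, was below control at both times and further below at 168 h. Exposed arrays read 7.58, 7.67 and 7.44 and then 6.77, 7.02 and 6.45, against control values of 9.65 to 10.28, and the change was -1.06 ± 0.30 (adjusted p = 0.0169, or up to 0.0664 without control 168 h replicate 2 or exposed 168 h replicate 3).

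**Figure D4:**
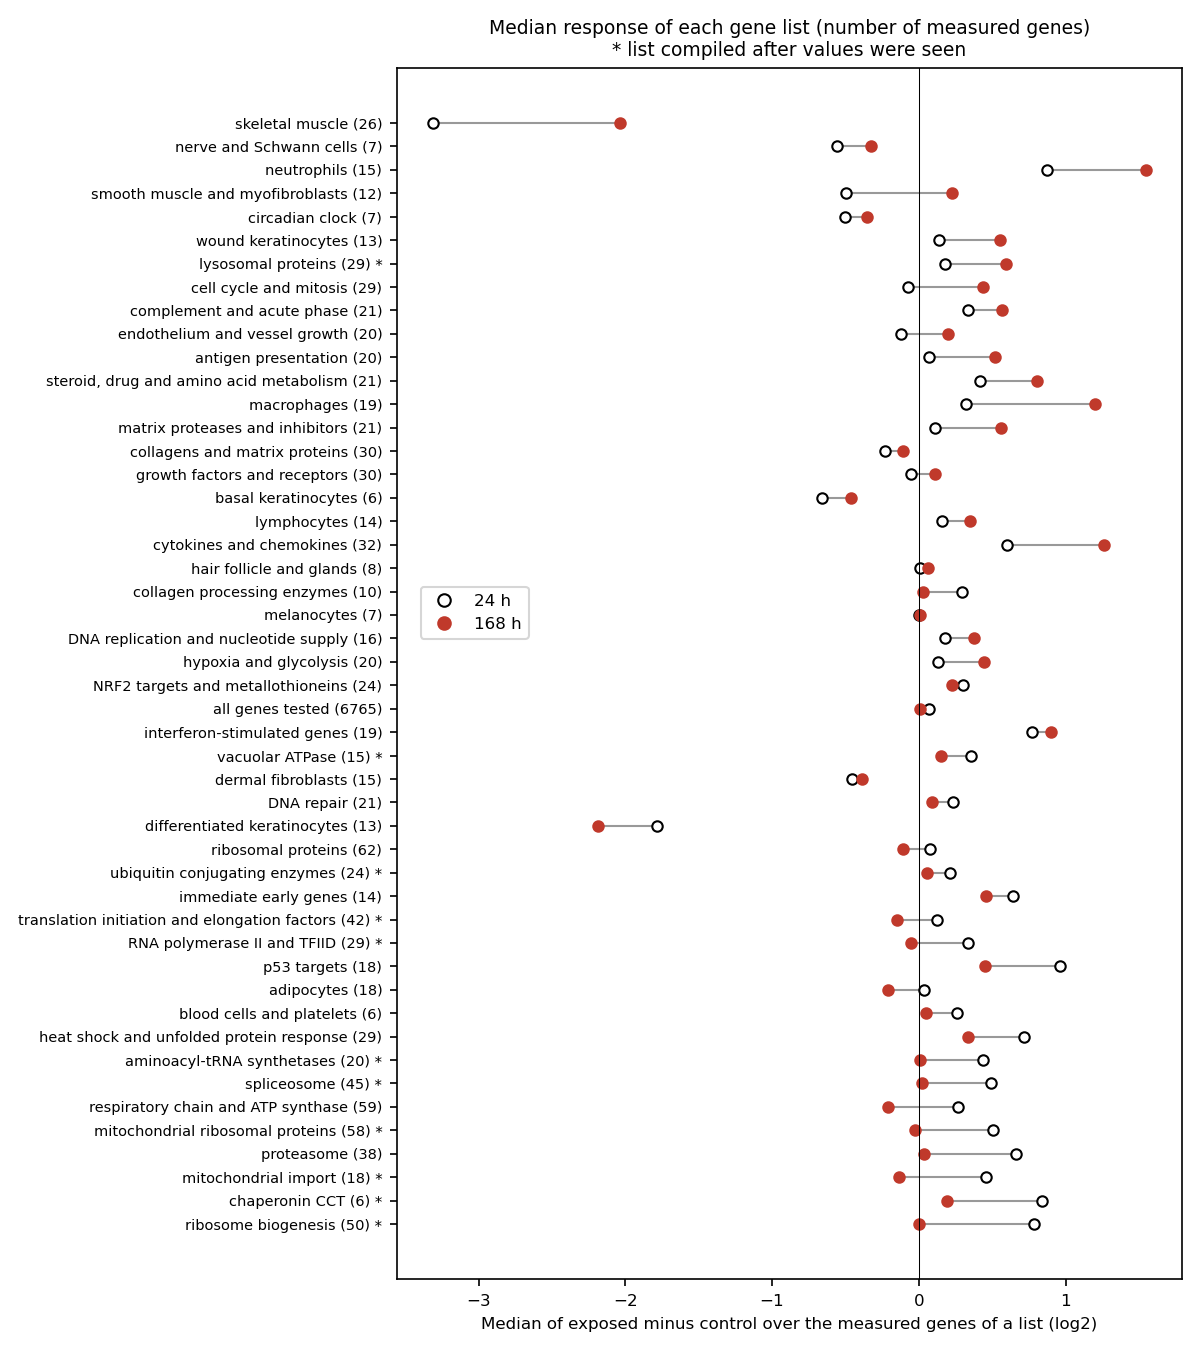
Median of exposed minus control (log2, x axis) over the measured genes of each list, at 24 h (open circles) and 168 h (filled circles), with the number of genes in parentheses and lists ordered by their median change, highest at the top. Asterisks mark lists compiled after values were seen. The proteasome goes from 0.661 to 0.036 and the neutrophil list from 0.874 to 1.55, while all genes tested go from 0.066 to 0.009.

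Of the 107 probe sets that passed at both times in opposite directions, the 5 named genes with the largest change include CCNB1 and SLC2A1, described above, and TAF9, RMND5A and LNPK. TAF9, a subunit of the general transcription factor TFIID, read 9.34, 9.49 and 9.22 in control and 10.42, 10.17 and 10.35 in exposed arrays at 24 h. By 168 h it read 9.60, 9.86 and 9.61 in control and 8.84, 9.06 and 9.10 in exposed arrays, so that neither time had an overlap and the order was reversed. The response turned from 0.96 ± 0.13 to -0.69 ± 0.13 (change -1.65 ± 0.18, adjusted p = 1.89e-07). RMND5A, a subunit of the CTLH ubiquitin ligase, turned from 0.54 ± 0.18 to -1.05 ± 0.18 and changed by -1.60 ± 0.26 (adjusted p = 7.17e-05), while the other of its 2 probe sets changed by -0.46 and did not pass. LNPK, a shaper of the endoplasmic reticulum, turned from 0.95 ± 0.22 to -0.62 ± 0.22 and changed by -1.57 ± 0.32 (adjusted p = 0.000978).

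A few of the largest falls stand outside the lists. AMELX, a gene best known for tooth enamel matrix, read 4.62, 4.60 and 4.55 in control and 7.45, 7.76 and 7.84 in exposed arrays at 24 h. At 168 h its exposed arrays read 5.88, 6.07 and 4.79, with replicate 3 next to the highest of the control arrays, which read 4.59 to 4.79 at that time. It changed by -2.21 ± 0.45 (adjusted p = 0.00112). QPCT, which cyclizes N-terminal glutamine, went the way of the keratins. Its exposed arrays read 9.23, 8.97 and 9.36 at 24 h and 7.05, 7.12 and 7.60 at 168 h, against control values of 9.80 to 10.52, and it changed by -2.25 ± 0.34 (adjusted p = 3.14e-05). Of its 3 probe sets 1 passed.

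Some responses were below control at 168 h without having passed the threshold at 24 h. Besides PPM1D, the genes named for this were PLAGL1, SAMD4A, HTRA4 and AKTIP. AKTIP, a protein that binds the kinase AKT, read 8.52, 8.96 and 8.97 in exposed and 10.12, 10.08 and 9.69 in control arrays at 168 h, a response of -1.14 ± 0.20 after -0.18 ± 0.20 at 24 h. It changed by -0.96 ± 0.28 (adjusted p = 0.0203). HTRA4, a serine protease, changed by -1.15 ± 0.32, SAMD4A, an RNA-binding repressor of translation, by -1.33 ± 0.39 and PLAGL1, a zinc finger factor, by -1.11 ± 0.36. Calls of these 4 were lost in 4, 3, 5 and 9 of the 12 fits without 1 array, in the order AKTIP, HTRA4, SAMD4A and PLAGL1.

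Of the 820 genes past the threshold in the same direction at both times, those with the strongest responses and no call in the change are given with the interval of that change. CXCL8, the neutrophil chemoattractant interleukin 8, read 4.50, 4.60 and 4.55 in control and 10.52, 11.08 and 10.92 in exposed arrays at 24 h. Values at 168 h were 5.09, 5.33 and 7.18 in control and 12.42, 12.29 and 11.25 in exposed arrays, the third control array being the muscle-rich one. The responses of 6.29 ± 0.70 and 6.12 ± 0.70 differed by -0.17 ± 0.99, with a 95% interval of -2.16 to 1.82. ARG1, arginase of myeloid cells and epidermis, had responses of 6.06 ± 0.74 and 6.28 ± 0.74, and an interval of the change from -1.90 to 2.33. TNC, tenascin C of provisional matrix, read 12.19, 11.76 and 11.98 in exposed arrays at 24 h and 12.64, 12.00 and 12.27 at 168 h, against control arrays between 7.68 and 8.56, with an interval of -0.78 to 1.52. The interval was -0.06 to 2.59 for CXCL2, a neutrophil chemokine, and -0.93 to 2.35 for SDS, serine dehydratase. These intervals are wide, and a change of up to 2 log2 units is within that of CXCL2.

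Losses present at both times were those of SERPINB7, SULT1E1, CALML5, KRT2 and HOXA9. SERPINB7, a serine protease inhibitor of the epidermis, read 10.11, 10.06 and 10.37 in control and 7.02, 6.43 and 6.04 in exposed arrays at 24 h. Control arrays at 168 h read 10.47, 10.91 and 10.35 and exposed arrays 6.89, 6.71 and 6.58, and the interval of the change was -1.16 to 0.84. SULT1E1, estrogen sulfotransferase, had responses of -3.47 ± 0.44 and -4.58 ± 0.44 and an interval of -2.36 to 0.13. CALML5, a calcium-binding protein of differentiated epidermis, had responses of -3.44 ± 0.32 and -4.31 ± 0.32 and an interval of -1.80 to 0.05. HOXA9, a homeobox gene of body position, had responses of -2.41 ± 0.33 and -2.65 ± 0.33, and an interval of -1.18 to 0.71.

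**Figure D5:**
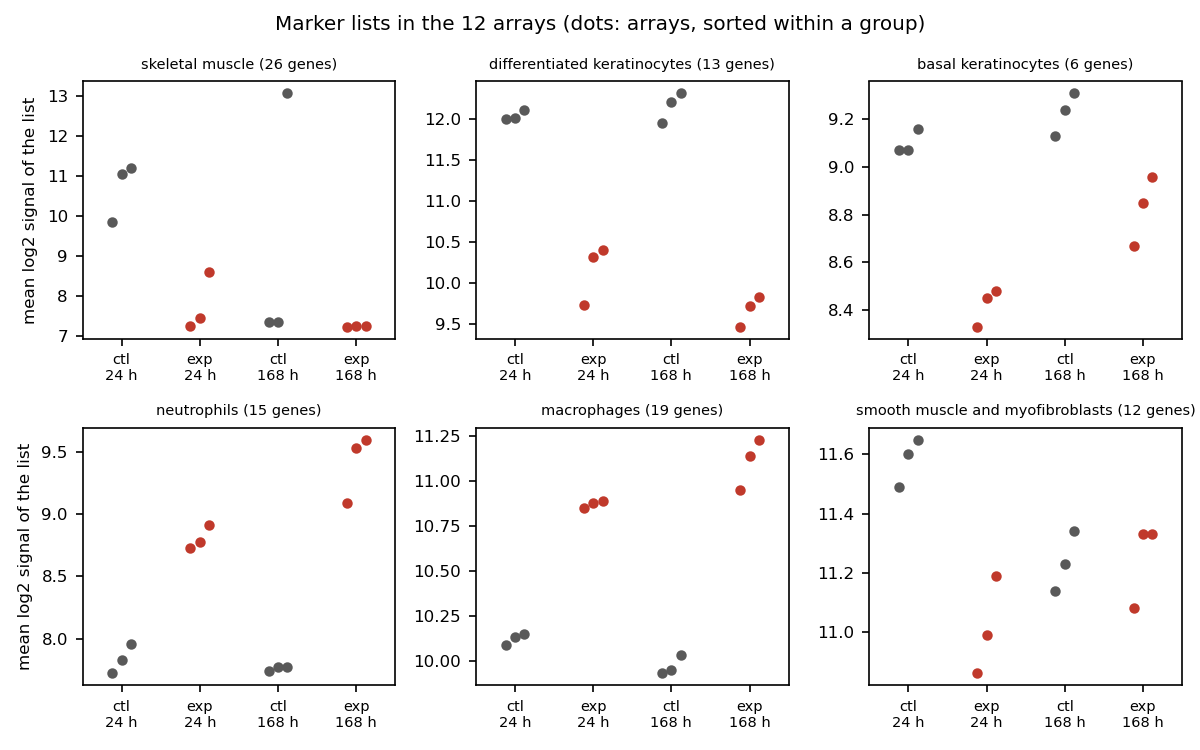
Mean log2 signal (y axis) of the measured genes of 6 marker lists in each of the 12 arrays, in control (ctl) and exposed (exp) groups at 24 h and 168 h (x axis), sorted within a group. The skeletal muscle panel shows 1 control array at 168 h at 13.06 beside 2 near 7.3, and the neutrophil and macrophage panels show exposed arrays highest at 168 h.

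Marker lists of other cell types give the composition of the biopsies beside these results. The 3 differences of exposed and control arrays by number were compared between the times in an exact permutation test, whose smallest two-sided p with 3 against 3 is 0.1. That value was reached by the neutrophil list, whose exposed arrays rose from 8.73 to 8.91 at 24 h to 9.09 to 9.60 at 168 h, and by the macrophage list, with 10.85 to 10.89 and 10.95 to 11.23. It was also reached by wound and basal keratinocytes, smooth muscle and myofibroblasts, endothelium, and blood cells and platelets, of 15 lists so tested, and the adjusted value over 15 tests cannot pass 0.05. Skeletal muscle (p = 0.6 in the exact test), adipocytes (0.2), dermal fibroblasts (0.4), lymphocytes (0.4) and melanocytes (0.2) did not reach it. In the same test differentiated keratinocytes (0.2), hair follicle and glands (0.2) and nerve and Schwann cells (0.3) did not either. Since the test could call no list, this split does not tell lists that changed from lists that did not. The part of cell composition in the gene results was not tested.

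Among the lists of single cell types, adipocytes had 0 of 18 members past the threshold in the change, melanocytes 0 of 7, skeletal muscle 0 of 26 and dermal fibroblasts 1 of 15, PDGFRB. GPD1, a glycerol phosphate dehydrogenase of fat and muscle, had the largest adipocyte change, with an interval of -3.17 to 0.29. MYL1, a light chain of fast muscle myosin, read 12.95, 13.30 and 11.89 in control arrays at 24 h and 6.06, 6.36 and 13.79 at 168 h, and its interval of -2.88 to 7.77 shows how little can be said of muscle genes. The nerve and Schwann cell list had 2 of 7 members higher, MBP by 0.81 ± 0.18 (adjusted p = 0.00209, passed by 1 of its 4 probe sets) and S100B by 0.65 ± 0.22 (adjusted p = 0.0452, lost in 9 of the 12 fits without 1 array), and CRYAB lower. Mast cells had only 2 measured genes and are not described. Of the blood cell list HBB, a hemoglobin chain, was lower, with 8.12, 8.31 and 8.48 in exposed and 9.17, 9.43 and 9.21 in control arrays at 168 h (change -0.99 ± 0.30, adjusted p = 0.0267, up to 0.0792 without 1 array). MITF, the melanocyte regulator, changed by 0.69 ± 0.25 (adjusted p = 0.0707), while the other of its 2 probe sets changed by 0.43 and passed.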

How the data were processed

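Total RNA from each biopsy was amplified in 1 round and hybridized to an Affymetrix Porcine Genome array, per the labels' protocols. Each probe set has a log2 signal, deposited as the authors computed it; the submitters' processing notes name RMA and Partek without a version. Values ranged from 4.05 to 14.53, and no background or detection call was used here. The arrays hold 24123 probe sets, of which 23999 were tested after 124 controls were dropped. GEO's platform annotation gave 1 symbol for 10069, several for 198 and listed none for 13732, and 9961 symbols matched the RefSeq table of Sscrofa11.1. This gave 6765 genes, of which 2261 had several probe sets and were taken from that with the highest mean.

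A mean per group was fitted to all 63 arrays with limma 3.58.1 in R 4.3.3, with 36 residual and 3.24 prior degrees of freedom, so the spread is pooled over all groups and arrays are taken as independent, although exposed and control sites come from the same animals. Two-sided p-values were corrected across all 23999 tests by the Benjamini-Hochberg method, with a threshold of 0.05. Errors after ± are standard errors, and intervals are 95%. Marker means were compared by exact permutation. The script was tested on simulated data. Arrays left out in turn, blocks, sham controls, other normalizations, weights and filters were the alternatives.

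Members and lists were chosen with earlier results of these data known. Named genes were the 15 largest changes in each direction, up to 3 called members per list (or the 1 with the largest change), the 5 largest of opposite direction, and 5 in each direction kept at both times or past the threshold at 168 h only. PSMD10, PSMC3, PSMC6, PSMD11, CD163, CD14, CD83, TP53I3, BRCA1, TIMP1, COL1A2, COL3A1, LDHA, PGK1, VEGFA, HMOX1, the class I genes and the genes named for lists compiled later were added after their values were seen. So were BUB3, IL7R, ANKRD37, MMP2, TPM1, TGFB3, IGF1R, DKK2 and SLA-DMB.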

Additional observations from a re-analysis of the deposited data

Results flagged for a closer look

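The difference between the responses at 24 h and 168 h was itself tested, and 2478 probe sets passed the threshold of the adjusted p in limma (5780 had an unadjusted p below 0.05). Among named genes past the threshold at both times in opposite directions, TAF9 changed by -1.65, RMND5A by -1.60, LNPK by -1.57, CCNB1 by 1.77 and SLC2A1 by 1.34 on the log2 scale. Each kept its call in all 12 fits that left out 1 array, with a highest adjusted p of 2.49e-06, 0.000588, 0.00701, 0.00167 and 0.00745 in that order. In the other alternatives LNPK lost its call in 4, SLC2A1 in 2 and RMND5A in 1. TAF9 and CCNB1 kept theirs in all of them.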

How the results depend on the processing

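Of the 100 named genes past the threshold in the change, 61 passed in all 12 fits that left out 1 array. The count of 2478 ranged from 1777 (without exposed 24 h replicate 3) to 2676 over those fits. It was 1318 with the replicate number as a block on the 12 arrays alone (3597 with the block on 54 arrays), 448 and 365 within the earlier and the later transcription day, 145 with the sham arrays as control, 3746 with array weights, and, in alternatives chosen after seeing the data, 866 with replicates 1 and 2 only and 2802 with the day of sacrifice as a block. With a change of at least 1 log2 unit required as well it was 564. Same-numbered exposed and control arrays had residual correlations of 0.283, -0.131 and -0.019 at 24 h and 0.128, 0.22 and 0.09 at 168 h. Pairs of different number had -0.216 to 0.203 at 24 h and -0.136 to -0.009 at 168 h. Every same-numbered pair thus lay above the others at 168 h, but not at 24 h. Number 3 differs from 1 and 2 in day of sacrifice, and nothing in the labels says that a number marks an animal. The 24 h response passed at 2195 probe sets within the earlier day, 3112 with sham, 4225 with replicates 1 and 2 only and 1249 with at least 1 log2 unit, against 6507. The 168 h response passed at 730 within the later day, 2664 with sham and 916 with at least 1 log2 unit, against 4304. Exposed sites differed between times at 2583 and 2131 within the earlier and later day and at 550 with at least 1 log2 unit, against 6311. Control sites differed at 22 with the 12 arrays alone, 123 with the day as a block, 141 within the later day, 423 with the muscle score, 671 with array weights, 31 with replicates 1 and 2 only, 29 with at least 1 log2 unit and 5 to 301 without 1 array, against 218. For control sites limma called 0 within the earlier day (1302 at an unadjusted p under 0.05) and 0 with sham (1058 at that level). Sham and within-day fits rest on 1 or 2 arrays a group, and a lone array is taken to vary like the others. Of the 100 named genes 85 passed with the 12 arrays alone, 31 and 21 within the days and 17 with sham. The replicate block was not fitted for the contrasts between times within exposed or control sites, since number lies within time.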

Other observations

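Lists for growth and protein production were compiled after values were seen, so their counts describe the data and support nothing. Ribosome biogenesis genes had a lower response at 168 h for 38 of 50 members and a higher one for 0, with a median change of -0.766 against -0.060 over all genes. At 24 h 43 of the 50 were above control and 0 below it, and at 168 h 4 were above and 1 below. GNL3, the nucleolar GTPase nucleostemin, read 9.76, 9.80 and 9.69 in control and 11.07, 10.89 and 10.79 in exposed arrays at 24 h, and 9.49, 9.63 and 9.79 and 9.16, 9.74 and 9.60 at 168 h. It changed by -1.30 ± 0.19 (adjusted p = 1.82e-05). EMG1, an rRNA methyltransferase, changed by -1.46 ± 0.48 (adjusted p = 0.0425). Without the control 168 h replicate 3 array 33 members were lower.

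All 6 measured subunits of the chaperonin CCT, which folds actin and tubulin, were above control at 24 h and had a lower response at 168 h. CCT6A read 11.70, 11.49 and 11.72 in exposed arrays at 24 h and 10.29, 10.39 and 10.38 at 168 h, and changed by -1.17 ± 0.21 (adjusted p = 0.000308). Mitochondrial ribosomal proteins had a lower response for 27 of 58 members and a higher one for 0 (median -0.579), and 45 of them were above control at 24 h against 1 at 168 h. MRPL3 changed by -1.06 ± 0.25 (adjusted p = 0.00408). Mitochondrial import genes were lower for 9 of 18 (median -0.647), and for 5 without exposed 24 h replicate 3. Spliceosome genes were lower for 19 of 45 (median -0.420), with SNRPA, a protein of the U1 particle, at -1.13 ± 0.19 (adjusted p = 0.000154).

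Translation initiation and elongation factors were lower for 17 of 42 (median -0.323), and for 11 without control 168 h replicate 3, and their 168 h response was below control for 11 and above it for 0. EIF3B, a subunit of initiation factor 3, changed by -0.97 ± 0.19 (adjusted p = 0.00102). Aminoacyl-tRNA synthetases were lower for 6 of 20 (median -0.402), for 2 without exposed 168 h replicate 2, and for 3 without control 24 h replicate 3, exposed 24 h replicate 3 or control 168 h replicate 3. RNA polymerase II and TFIID genes were lower for 10 of 29 and higher for 1, POLR2B (median -0.331). Ubiquitin conjugating enzymes were lower for 6 of 24 and higher for 2, UBE2C and UBE2T (median -0.204), the rises being 0 to 2 over the fits without 1 array.

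Lysosomal proteins changed in the other direction. The response was higher for 10 of 29 members and lower for 0 (median 0.457), and 24 were above control at 168 h against 11 at 24 h. ARSA, arylsulfatase A, read 8.55, 8.85 and 8.66 in exposed arrays at 24 h and 9.87, 9.88 and 9.84 at 168 h, against 9.01, 8.62 and 9.11 and 8.51, 8.57 and 8.23 in control arrays, and changed by 1.66 ± 0.25 (adjusted p = 3.23e-05). TPP1, a tripeptidyl peptidase, changed by 1.18 ± 0.22 (adjusted p = 0.000412) and GUSB, beta-glucuronidase, by 1.00 ± 0.21 (adjusted p = 0.00175). The count was 6 without control 24 h replicate 3 or exposed 168 h replicate 2. The vacuolar ATPase, which acidifies lysosomes, had 1 of 15 members lower, ATP6V1G1, and 0 higher (median -0.132). Macrophages, whose marker list had a mean of 10.85 to 10.89 in exposed arrays at 24 h and 10.95 to 11.23 at 168 h, are rich in lysosomes. The part of cell composition in this was not tested.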
